A study of Homo sapiens with 6 samples.

Results

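The S100 and annexin genes are followed here in HPNE-hTERT cells after FOLFIRINOX. Members were the protein-coding genes of the deposited table whose symbol is S100 or ANXA followed by the letters and numbers of a family member, 32 of 62754 genes in all. They comprised 19 S100 genes, 12 annexins and S100PBP, which the name pattern also takes in although it encodes a protein that binds S100P and not a member of the S100 family. The pattern leaves out the protein-coding genes S100A7A and ANXA8L1, whose symbols carry a further suffix. HPNE-hTERT is an established, non-malignant human pancreatic duct line made immortal with telomerase, so every library came from the same line. The FOLFIRINOX group (3 libraries) received 5-fluorouracil at 10 µM, SN-38 at 25 nM and oxaliplatin at 5 µM for 4 days, a treatment the labels give as one that induces senescence. SN-38 is the active form of irinotecan, a topoisomerase I inhibitor. The vehicle group (3 libraries) received DMSO and was collected at day 4. Polyadenylated RNA was sequenced, and the comparison asks how the RNA of these genes differs after the drugs.

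S100 proteins are small calcium sensors with a pair of EF-hand loops that mostly work as dimers and take hold of target proteins when calcium rises. Some are also released from cells and signal through receptors such as RAGE, the product of AGER. Annexins are calcium-dependent membrane-binding proteins that attach to acidic phospholipids and take part in vesicle traffic, membrane repair and anti-inflammatory signalling. The families meet in fixed complexes, of which S100A10 with annexin A2 is the best known. Several S100 genes are known for raised expression in pancreatic ductal cancer, among them S100P, S100A6 and S100A4.

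Values are reads per gene divided by the authors' library size factor, called normalized reads below. Total gene counts ran from 83981154 to 91992824 reads in FOLFIRINOX libraries and from 86435436 to 97762802 in vehicle libraries. Libraries are named by the P number in the column names (P14, P15 or P19), which appears in both groups and in no label. Mitochondrial ribosomal RNA made up 1.18% to 2.74% of reads in FOLFIRINOX and 0.552% to 0.864% in vehicle, highest in P14 in both groups. The p21 gene CDKN1A was 9.30-fold higher in FOLFIRINOX and the proliferation marker MKI67 fell by 8.78 on the log2 scale (limma adjusted p = 7.4e-07 and 3.4e-09). Among duct markers, EPCAM and CFTR stayed under a value of 10 in every library and CA2 had no read, whereas the keratin KRT18 averaged 7148 normalized reads in FOLFIRINOX and 9901 in vehicle. Summed mesenchymal markers were 3007696 to 3458379 normalized reads in FOLFIRINOX and 3658486 to 5364142 in vehicle. The largest part was FN1, at 1772696 to 2088514 in FOLFIRINOX and 2256764 to 3325798 in vehicle (limma adjusted p = 0.0513). DCN and LUM went the other way, with means of 411620 and 27355 in FOLFIRINOX against 163369 and 14907 in vehicle (limma adjusted p = 1.9e-04 and 0.0666). The other markers of that list had lower means in FOLFIRINOX. Whether the 3 libraries of a group stem from different cultures is in no label, and the spread behind each p-value may therefore be technical. In bulk RNA, fewer cells that express a gene and less RNA of that gene per cell cannot be told apart.

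FOLFIRINOX cells had more RNA of ANXA4 and ANXA3 and less of ANXA6, S100A3, S100A13 and S100A16, while the most abundant members, ANXA2, ANXA5, S100A6, S100A11 and S100A10, were not called. A call is an adjusted p under 0.05 in limma on log2(normalized reads + 1), adjusted over 17951 genes reaching 10 normalized reads in no fewer than 3 libraries. Of the 12 annexins 10 passed that filter, of which 2 rose and 1 fell. Of the 19 S100 genes 9 passed, of which 0 rose and 3 fell. Over all genes tested 11.4% were called higher (2047) and 12.2% lower (2191), and with libraries scaled to a common total 2683 were higher and 1698 lower. Of the mesenchymal markers 5 of 9 tested were called lower and 1 higher. Among those 5, COL1A2, COL3A1 and PDGFRB lost their calls with a library left out (limma adjusted p up to 0.0578, 0.0871 and 0.0532). COL1A1 lost its call in another alternative fit, and VIM held its call in each. Of the duct markers 2 of 7 tested were called lower and 0 higher. These were KRT18 (−0.47, limma adjusted p = 0.0430, up to 0.179 with a library left out) and SOX9 (−0.96, limma adjusted p = 0.0028). Members can pass the filter through either group, so counts among those that passed describe them only. With libraries paired by P number in the fit (replicate block), 4 annexins rose and 2 fell, and 0 S100 genes rose and 4 fell, when 22.3% of all genes were called higher and 21.8% lower. The median log2 difference was 0.39 over the 10 annexins and −0.26 over the 9 S100 genes, against 0.02 over all genes tested and a median absolute difference of 0.41. The annexin median falls in a gap between ANXA7 (0.07) and ANXA1 (0.71). Above it, ANXA1, ANXA9 and ANXA10 were not called without the block. S100PBP was not called in either fit.

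**Figure D1:**
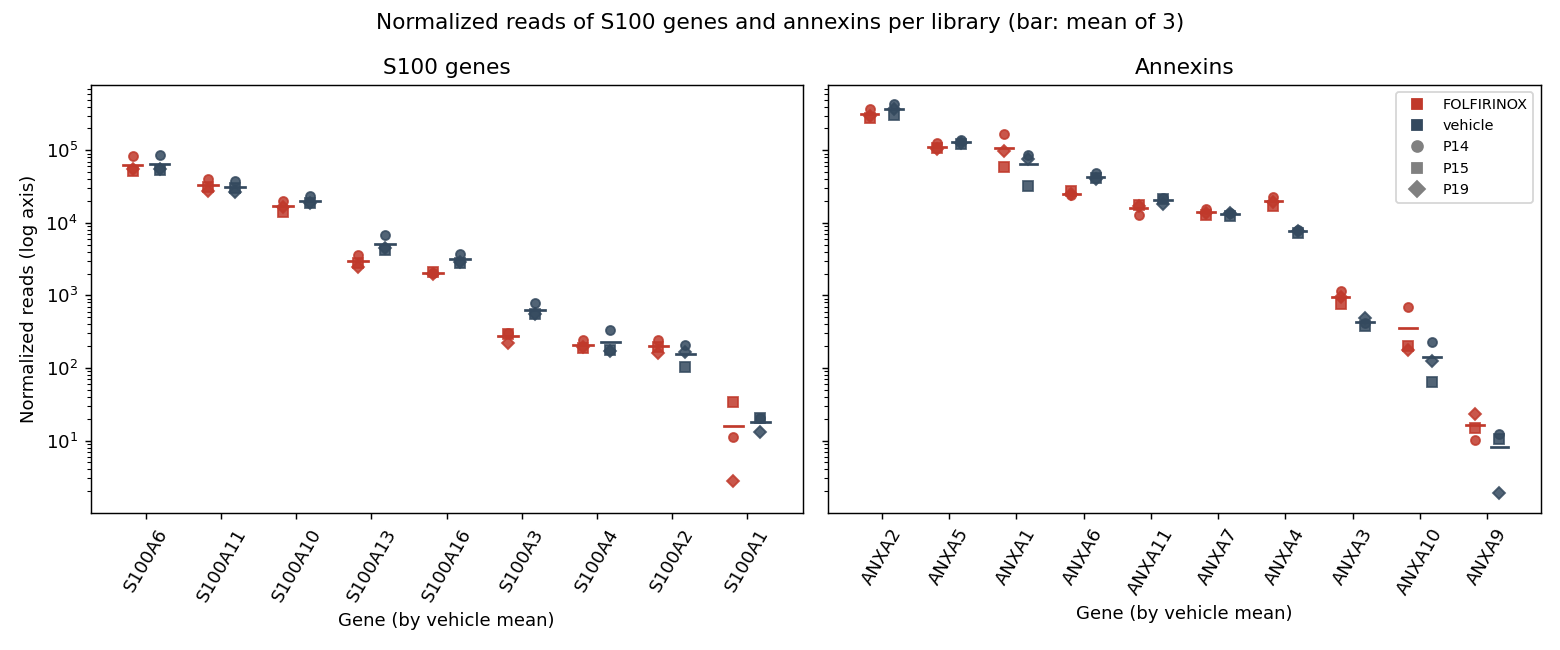
Normalized reads (log axis) of the 9 S100 genes and 10 annexins that passed the filter, with FOLFIRINOX libraries in red left of vehicle libraries in dark blue, a symbol per P number and a bar at each mean. ANXA4 and ANXA3 lie higher and ANXA6, S100A3, S100A13 and S100A16 lower in all 3 FOLFIRINOX libraries than in any vehicle library.

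ANXA4 encodes annexin A4, a membrane-binding annexin of secretory and other epithelia. It had 23049, 17323 and 19304 normalized reads in the P14, P15 and P19 libraries of FOLFIRINOX, against 8034, 7154 and 7664 in those of vehicle. Every FOLFIRINOX library lay far above every vehicle library. The means were 19892 ± 2908 in FOLFIRINOX and 7617 ± 441 in vehicle (SD, n = 3 each), a log2 difference of 1.38 ± 0.16 (SE, limma adjusted p = 1.2e-04) or 2.60-fold. Within P14, P15 and P19 the log2 differences were 1.52, 1.28 and 1.33. Its call held in each of the alternative fits run, with adjusted p at most 0.0034.

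ANXA3 encodes annexin A3, another calcium-dependent phospholipid binder. It had 1142, 772 and 937 normalized reads in FOLFIRINOX, against 422, 382 and 486 in vehicle, in the same order of P numbers. The groups did not overlap. The log2 difference was 1.13 ± 0.20 (limma adjusted p = 0.0024), or 2.19-fold, and the within-P values were 1.43, 1.01 and 0.95. ANXA4 lies on chromosome 2 and ANXA3 on chromosome 4.

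The start regions of these rising annexins, 250 bases before to 50 after the RefSeq start, are shown because both genes moved the same way, with motif matches in capitals. The motifs searched on both strands were the AP-1 site TGANTCA, the GC box GGGCGG, the CCAAT box, the TATA box TATAAA and the cell cycle homology region (CHR) TTTGAA. The GC box was in 44.6% of 27305 RefSeq promoters of this length, CCAAT in 35.7%, the CHR in 15.4%, the TATA box in 11.95% and the AP-1 site in 7.76%. The ANXA4 window (GRCh38.p14, chr2:69643558-69643857, plus strand) held 6 GC box matches, some overlapping each other, and none of the other motifs. Its RefSeq start lies before the GENCODE 29 gene, so the start used in these cells may be another. The ANXA3 window (chr4:78551520-78551819, plus strand) held no match. GC content was 78.0% in the ANXA4 window and 64.7% in the ANXA3 window.
ANXA4: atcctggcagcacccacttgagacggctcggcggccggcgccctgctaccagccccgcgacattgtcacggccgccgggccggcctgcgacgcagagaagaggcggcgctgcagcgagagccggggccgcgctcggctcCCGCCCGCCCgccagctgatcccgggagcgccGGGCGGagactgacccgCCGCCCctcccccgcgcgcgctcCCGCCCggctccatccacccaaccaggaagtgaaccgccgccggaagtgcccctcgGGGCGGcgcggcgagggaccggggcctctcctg
ANXA3: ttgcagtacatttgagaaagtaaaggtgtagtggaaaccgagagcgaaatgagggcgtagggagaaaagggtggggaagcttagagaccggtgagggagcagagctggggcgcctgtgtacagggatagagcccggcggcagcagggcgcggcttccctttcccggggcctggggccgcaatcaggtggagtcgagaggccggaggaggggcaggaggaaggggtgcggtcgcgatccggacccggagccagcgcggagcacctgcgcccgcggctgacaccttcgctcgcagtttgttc

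ANXA6 encodes annexin A6, the member with an enlarged core, which binds membranes at endosomes and at sites of repair. It had 24137, 27292 and 24614 normalized reads in FOLFIRINOX, against 48239.5, 41924 and 39970.2 in vehicle. No FOLFIRINOX library came near the lowest vehicle library. The log2 difference was −0.77 ± 0.15 (limma adjusted p = 0.0037) with within-P values of −0.999, −0.62 and −0.70, and the call held in each of the alternatives run, with adjusted p at most 0.0232. The start region (GRCh38.p14, chr5:151157730-151158029, minus strand) held 1 GC box and 1 CCAAT match, both on the opposite strand and in capitals.
ANXA6: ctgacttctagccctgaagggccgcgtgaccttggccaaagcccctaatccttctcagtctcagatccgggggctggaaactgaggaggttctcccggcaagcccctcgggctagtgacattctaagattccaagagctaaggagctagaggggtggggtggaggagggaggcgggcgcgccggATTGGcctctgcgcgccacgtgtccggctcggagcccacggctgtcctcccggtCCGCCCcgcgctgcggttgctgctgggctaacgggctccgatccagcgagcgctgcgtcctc

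ANXA11, an annexin that links vesicles and RNA granules to membranes, was lower by less and was not called. It had 12656, 17899 and 16996 normalized reads in FOLFIRINOX, against 21727, 21592 and 17906 in vehicle. The groups did not overlap, but vehicle P19 was nearly equal to FOLFIRINOX P15. The log2 difference was −0.38 ± 0.17 (limma adjusted p = 0.148), and the gene was called lower with the replicate block (adjusted p = 0.0105). Among the 10 annexins tested 4 had groups that did not overlap, and among the 9 S100 genes 3, as did 39.5% of all genes tested.

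ANXA1 and ANXA10 varied widely between P numbers within each treatment. ANXA1 encodes annexin A1, the glucocorticoid-regulated annexin that acts on formyl peptide receptors. It had 165469.8, 57970.5 and 96431 normalized reads in FOLFIRINOX, against 85250.0, 32267 and 76458 in vehicle. In both groups P14 was highest and P15 lowest, and within each P number the FOLFIRINOX library was the higher. The log2 difference was 0.71 ± 0.40 (95% interval −0.17 to 1.60, limma adjusted p = 0.23). Paired by P number its standard error was 0.11 and its adjusted p was 4.9e-06, with within-P differences of 0.96, 0.85 and 0.33.

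ANXA10, an annexin best known from stomach epithelium, ranged from 175 to 694 normalized reads in FOLFIRINOX and from 63.7 to 232 in vehicle. P14 was again highest in both groups, and vehicle P14 exceeded FOLFIRINOX P15 and P19. Its log2 difference was 1.23 ± 0.54 (limma adjusted p = 0.126, and 3.3e-05 with the replicate block), with within-P values of 1.58, 1.63 and 0.49. For both genes the difference within P19 was the smallest of the 3.

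**Figure D2:**
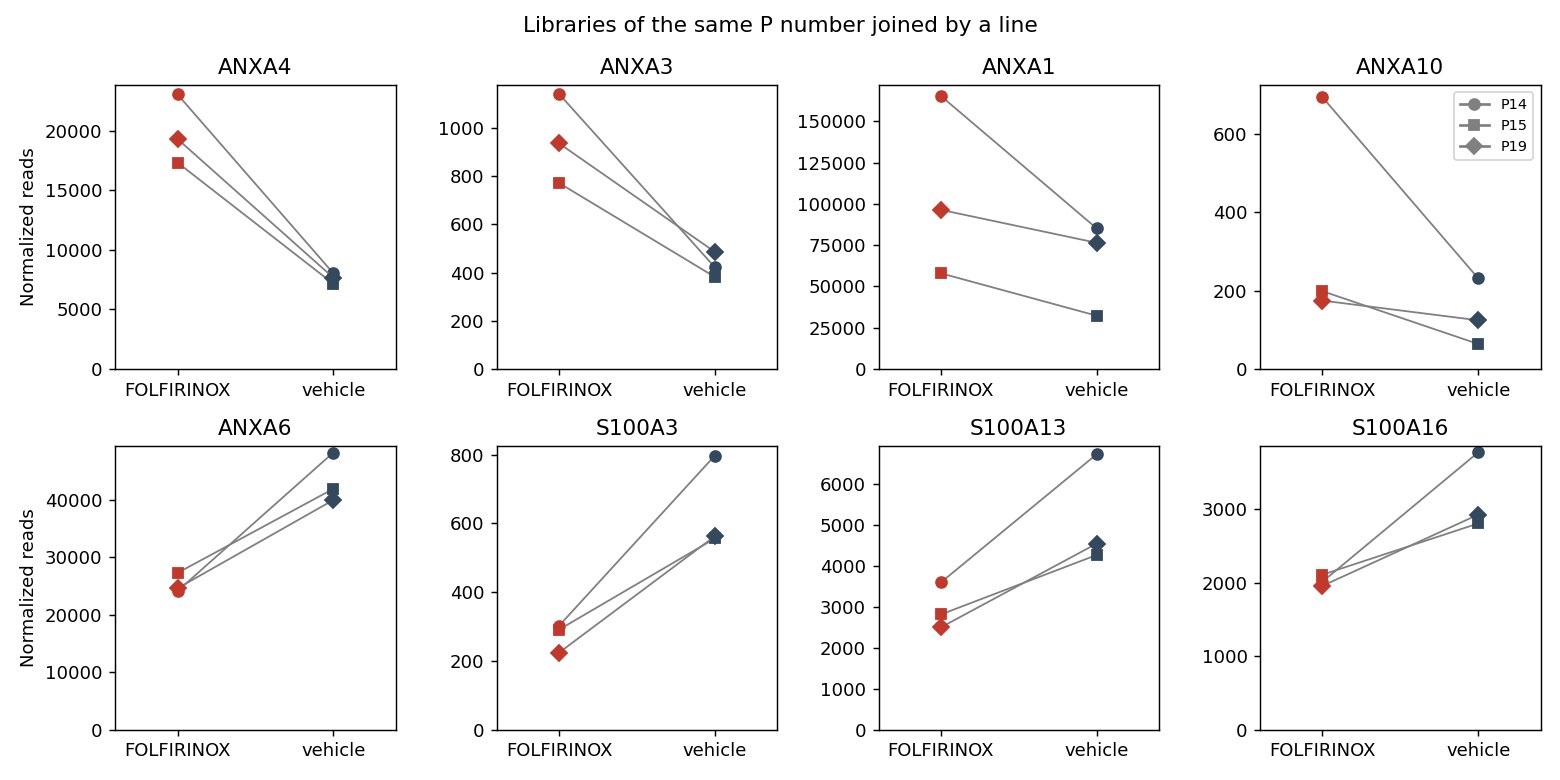
Normalized reads (linear axes from 0) of 8 members, FOLFIRINOX at left and vehicle at right of each panel, with libraries of the same P number joined by a line. Every line of ANXA4, ANXA3, ANXA1 and ANXA10 ends lower in vehicle, and every line of ANXA6, S100A3, S100A13 and S100A16 ends higher in vehicle.

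The annexins with the most reads showed small differences. ANXA2, the membrane-binding partner of S100A10 and a plasminogen receptor, had 376351, 275347 and 295456 normalized reads in FOLFIRINOX, against 429121, 311161 and 367041 in vehicle. The groups overlapped, although the FOLFIRINOX library was lower within each P number (log2 difference −0.23 ± 0.18, 95% interval −0.63 to 0.17, limma adjusted p = 0.399). The processed pseudogenes ANXA2P1, ANXA2P2 and ANXA2P3, whose sequences resemble ANXA2, together had 0.527% to 0.658% of its value per library, so reads assigned to them can only slightly change its level. Reads that match several places and were left uncounted would not appear in that share. ANXA5, the phosphatidylserine binder used to stain dying cells, had 125982, 107642 and 103955 normalized reads in FOLFIRINOX, against 139411, 121840.3 and 126082 in vehicle. These too overlapped, at −0.20 ± 0.15 (95% interval −0.53 to 0.13, limma adjusted p = 0.365). ANXA7, known as synexin, had 15604, 12851 and 13586 normalized reads in FOLFIRINOX, against 13579, 12549 and 13707 in vehicle. Its interval was narrow, −0.25 to 0.40 on the log2 scale (0.07 ± 0.15, limma adjusted p = 0.754).

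The remaining annexins were near the limit of detection. ANXA9 ranged from 10.3 to 23.3 normalized reads in FOLFIRINOX and from 1.87 to 12.3 in vehicle (log2 difference 1.10 ± 0.69, limma adjusted p = 0.278). ANXA8 failed the filter, with 15, 30 and 8 reads in FOLFIRINOX and 0, 2 and 10 in vehicle. It has a near-identical copy, ANXA8L1, with which reads can be shared. ANXA8L1 had 8 reads in FOLFIRINOX P19 and 0 in every other library. ANXA13, known from intestinal and kidney epithelium, failed the filter too. It had 4, 2 and 8 reads in FOLFIRINOX and 0 in each vehicle library, where up to 3 reads per library remain possible. Without the filter ANXA13 was called higher (limma adjusted p = 0.0316), on 14 reads in all.

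The S100 genes that were called all fell. They lie on chromosome 1, as do 15 of the 19 S100 genes and all 9 that passed the filter. Their chromosome therefore does not mark them out among the S100 genes tested. S100A3, an S100 protein best known from hair cuticle, had 302, 291 and 224 normalized reads in FOLFIRINOX, against 797, 556 and 563 in vehicle. The highest FOLFIRINOX library was well under the lowest vehicle library. The log2 difference was −1.22 ± 0.22 (limma adjusted p = 0.0025), with 2.32-fold more in vehicle and within-P values of −1.40, −0.93 and −1.32. S100A3 held its call in each of the alternatives run, with adjusted p at most 0.0192. By GENCODE 29 (GRCh38) the gene spans chromosome 1 from 153547329 to 153549372, inside the span of S100A4 (153543613 to 153550136) on the same strand, without sharing exon bases with it.

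S100A13 and S100A16 fell by less. S100A13, which takes part in the release of FGF1 and interleukin-1 alpha without a signal peptide, had 3588, 2808 and 2493 normalized reads in FOLFIRINOX, against 6712, 4258 and 4535 in vehicle. Vehicle P14 stood above the other vehicle libraries, and the groups did not overlap (log2 difference −0.79 ± 0.21, limma adjusted p = 0.0207). S100A16, a widely expressed S100 protein, had 2016, 2112 and 1959 normalized reads in FOLFIRINOX, against 3778, 2809.6 and 2930.0 in vehicle. Here too vehicle P14 was highest and the groups did not overlap (−0.63 ± 0.17, limma adjusted p = 0.0198). Neither call held in every fit that left out a library. S100A13 was not called without FOLFIRINOX P15 (adjusted p = 0.0620), FOLFIRINOX P19 (0.0803) or vehicle P14 (0.0745), and S100A16 not without FOLFIRINOX P19 (0.0801), vehicle P14 (0.0673) or both P14 libraries (0.108). The strand setting of the counting is not given in the sources used here, and 10.6% of S100A13's exon bases overlap S100A1 on the other strand, which had at most 33.4 normalized reads in any library. A further overlap, on the same strand, covers 24.2% of its exon bases with the processed transcript AL162258.1, which had 0 in each library. Reads there cannot be told apart by strand, and their part in the S100A13 values was not tested.

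The start regions of the 3 falling S100 genes, all on the minus strand of chromosome 1, are shown because these genes moved the same way. S100A2, which was not called, lies between S100A3 and S100A16. Between S100A16 and S100A13 lies S100A14, which failed the filter and was not tested. By RefSeq (GRCh38.p14) the S100A3 window is chr1:153549209-153549508, that of S100A16 chr1:153613088-153613387 and that of S100A13 chr1:153634312-153634611. The S100A3 window held 4 matches, namely 1 AP-1, 1 GC box and 2 CCAAT, that of S100A13 held 1 GC box, and that of S100A16 held none. AP-1 letters were present in 5 of the 29 members with a RefSeq promoter, TATA box letters in 11, GC box letters in 11, CCAAT in 7 and CHR letters in 6. A match is a match of letters only. As for ANXA4, the RefSeq start of S100A13 lies outside the GENCODE 29 gene.
S100A3: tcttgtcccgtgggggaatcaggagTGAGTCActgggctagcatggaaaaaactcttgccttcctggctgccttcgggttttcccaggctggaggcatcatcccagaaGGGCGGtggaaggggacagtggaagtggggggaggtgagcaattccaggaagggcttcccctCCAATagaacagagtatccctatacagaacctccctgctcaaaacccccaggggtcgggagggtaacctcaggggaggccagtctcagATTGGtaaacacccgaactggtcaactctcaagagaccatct
S100A16: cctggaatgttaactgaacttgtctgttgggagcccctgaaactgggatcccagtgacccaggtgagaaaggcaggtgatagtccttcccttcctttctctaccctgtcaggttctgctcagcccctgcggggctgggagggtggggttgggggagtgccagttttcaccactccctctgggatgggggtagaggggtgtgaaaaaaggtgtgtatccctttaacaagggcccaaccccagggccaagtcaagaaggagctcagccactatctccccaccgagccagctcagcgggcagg
S100A13: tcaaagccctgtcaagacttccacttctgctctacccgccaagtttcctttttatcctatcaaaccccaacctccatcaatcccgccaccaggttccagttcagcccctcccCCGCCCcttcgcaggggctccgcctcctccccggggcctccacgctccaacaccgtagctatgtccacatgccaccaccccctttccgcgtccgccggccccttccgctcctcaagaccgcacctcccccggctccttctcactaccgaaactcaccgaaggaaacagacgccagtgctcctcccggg

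The abundant S100 genes, also on chromosome 1, were not called. S100A6, calcyclin, named for its growth-linked expression, had 82319.8, 52154 and 54927 normalized reads in FOLFIRINOX, against 86637, 53587 and 54972 in vehicle. Within each P number the pair of values was nearly the same, with log2 differences of −0.07, −0.04 and −0.001, while P14 stood above P15 and P19 in both groups. The difference was −0.04 ± 0.23 (95% interval −0.55 to 0.47, limma adjusted p = 0.923) and turned to 0.072 with common-total scaling, and paired by P number its interval was −0.25 to 0.17. S100A11, calgizzarin, which binds annexins A1 and A2, had 40623, 31307 and 27368 normalized reads in FOLFIRINOX, against 37459, 29775 and 26241 in vehicle. Again P14 was highest in both groups, and the difference was 0.08 ± 0.19 (95% interval −0.34 to 0.51, limma adjusted p = 0.787).

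S100A10, also called p11, the S100 protein that has lost calcium binding and is held by annexin A2, had 19946, 14280.4 and 16632 normalized reads in FOLFIRINOX, against 23257, 18743 and 18803 in vehicle. It was lower within each P number, but FOLFIRINOX P14 exceeded vehicle P15 and P19. The log2 difference was −0.26 ± 0.17 (limma adjusted p = 0.299, and 0.0443 with the replicate block). S100A4, known as metastasin or fibroblast-specific protein, ranged from 187 to 241 normalized reads in FOLFIRINOX and from 172 to 329.9 in vehicle (−0.06 ± 0.28, limma adjusted p = 0.894, and 0.047 on the log2 scale with common-total scaling). S100A2, a nuclear S100 protein of epithelial cells, ranged from 159.7 to 244 in FOLFIRINOX and from 102 to 205 in vehicle (0.37 ± 0.29, 95% interval −0.27 to 1.01, limma adjusted p = 0.39). S100A1, the heart and muscle member, had at most 33.4 normalized reads in FOLFIRINOX and 20.5 in vehicle (−0.66 ± 0.72, limma adjusted p = 0.545). S100PBP had 3011, 2804 and 2746 normalized reads in FOLFIRINOX, against 2895, 3396 and 3549.7 in vehicle, and its groups overlapped (−0.20 ± 0.16, limma adjusted p = 0.395). On the other strand YARS overlaps 4.31% of S100PBP's exon bases. YARS had 10072 to 11480 normalized reads in FOLFIRINOX and 17870 to 19892 in vehicle. S100A13 overlaps 7.76% of S100A1's exon bases, also on the other strand. The part of such reads in the S100PBP and S100A1 values was not tested.

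**Figure D3:**
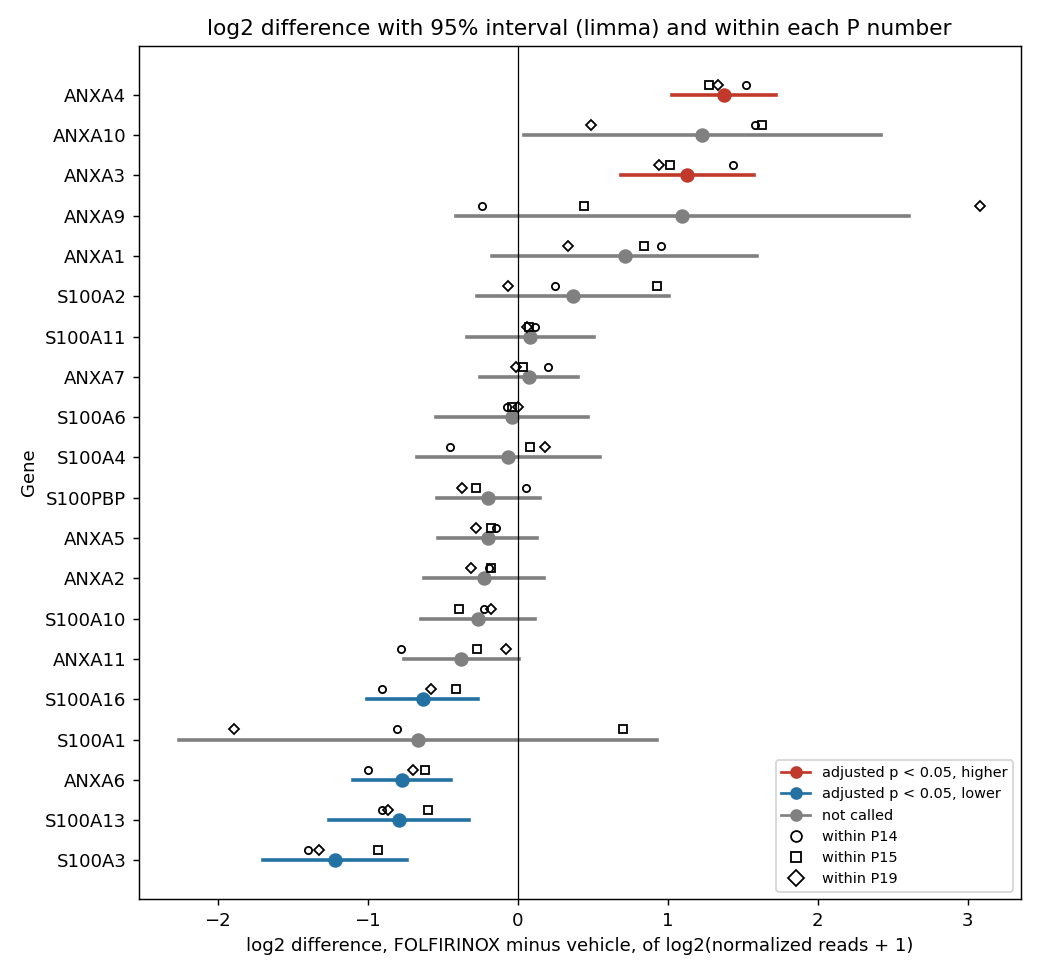
Log2 differences, FOLFIRINOX minus vehicle, of the 20 members that passed the filter, with 95% limma intervals (called higher in red, called lower in blue, not called in gray) and the differences within P14, P15 and P19 as open symbols. ANXA4 stands at 1.38 and S100A3 at −1.22, and the interval of ANXA1 spans 0 although its 3 open symbols lie above 0.

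The other 10 S100 genes failed the filter. No read was assigned in any library to S100A8 and S100A9, the subunits of calprotectin, to S100A12, to S100B, the glial member, or to S100G, the vitamin D-regulated calbindin of intestine. A count of 0 allows up to 3 reads per library, which is 2.80 to 3.18 normalized reads here, so lower levels were not detectable at this depth. S100P, known from pancreatic cancer, had 0 reads in FOLFIRINOX and 2 in vehicle over the 3 libraries of each group. S100A7, psoriasin, and S100Z had 2 reads each in FOLFIRINOX and 0 in vehicle, as did S100A7A, which is outside the name pattern. S100A14 had 12 reads in FOLFIRINOX and 2 in vehicle, and S100A5 had 3 in FOLFIRINOX and 18 in vehicle, 14 of them in P14. Myeloid markers, which would accompany calprotectin from blood cells, summed to 37.0 to 104 normalized reads in FOLFIRINOX and 70.0 to 140.4 in vehicle over 8 genes, with AIF1 at 0. CSF1R alone made the vehicle sum the larger, at 10.3 to 19.6 normalized reads in FOLFIRINOX and 70.0 to 125 in vehicle (limma adjusted p = 9.0e-04). For CD14 the means were 23.3 in FOLFIRINOX and 6.19 in vehicle, which was not called (limma adjusted p = 0.0726, and 0.0069 with the replicate block). CD14 passed the filter only through its FOLFIRINOX libraries, so these p-values are not independent of the filter. PTPRC failed the filter and had 3.93 to 35.5 in FOLFIRINOX and 0 in vehicle.

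Per length, the S100 transcripts were dominated by a few genes. Levels were compared as normalized reads per kb, using the median length of GENCODE 29 basic coding transcripts. S100A6 led with 77495 to 122318 per kb in FOLFIRINOX and 79624 to 128733 in vehicle. It made up 50.3% to 55.0% of the family's per-kb reads in FOLFIRINOX and 49.2% to 54.8% in vehicle. S100A11 and S100A10 followed at mean levels of 55723 and 18649.7 per kb in FOLFIRINOX and 52456 and 22297 in vehicle, then S100A13, S100A16 and S100A3. In vehicle each of these 6 genes was above the next in every library, and S100A3 was above S100A4. In FOLFIRINOX S100A3 (312 to 422 per kb), S100A4 (328 to 423) and S100A2 (255 to 389) overlapped and could not be ordered. S100A13 made up 2.87% to 3.24% of the family in FOLFIRINOX and 4.67% to 5.07% in vehicle.

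Among annexins ANXA2 held 54.9% to 57.5% of the family's per-kb reads in FOLFIRINOX and 60.5% to 61.6% in vehicle. ANXA5 came next with 19.5% to 23.8% in FOLFIRINOX and 21.2% to 25.1% in vehicle. ANXA1 made up 18.7%, 9.40% and 14.3% in FOLFIRINOX, against 9.50%, 4.88% and 9.79% in vehicle, so its share varied with P number as its level did. ANXA4 changed place in the order, with 8224 to 10942 per kb in FOLFIRINOX, above ANXA7 (5241 to 6364) and ANXA11 (2735 to 3868). In vehicle it had 3396 to 3814 per kb, below ANXA7 (5118 to 5590.2) and ANXA11 (3870.0 to 4696). This order depends on the length used, because ANXA4 has 11048 bases over all annotated exons and 2106.5 in its median transcript. With all exon bases as length ANXA4 was the seventh annexin in both groups, and ANXA5 stood above ANXA2.

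**Figure D4:**
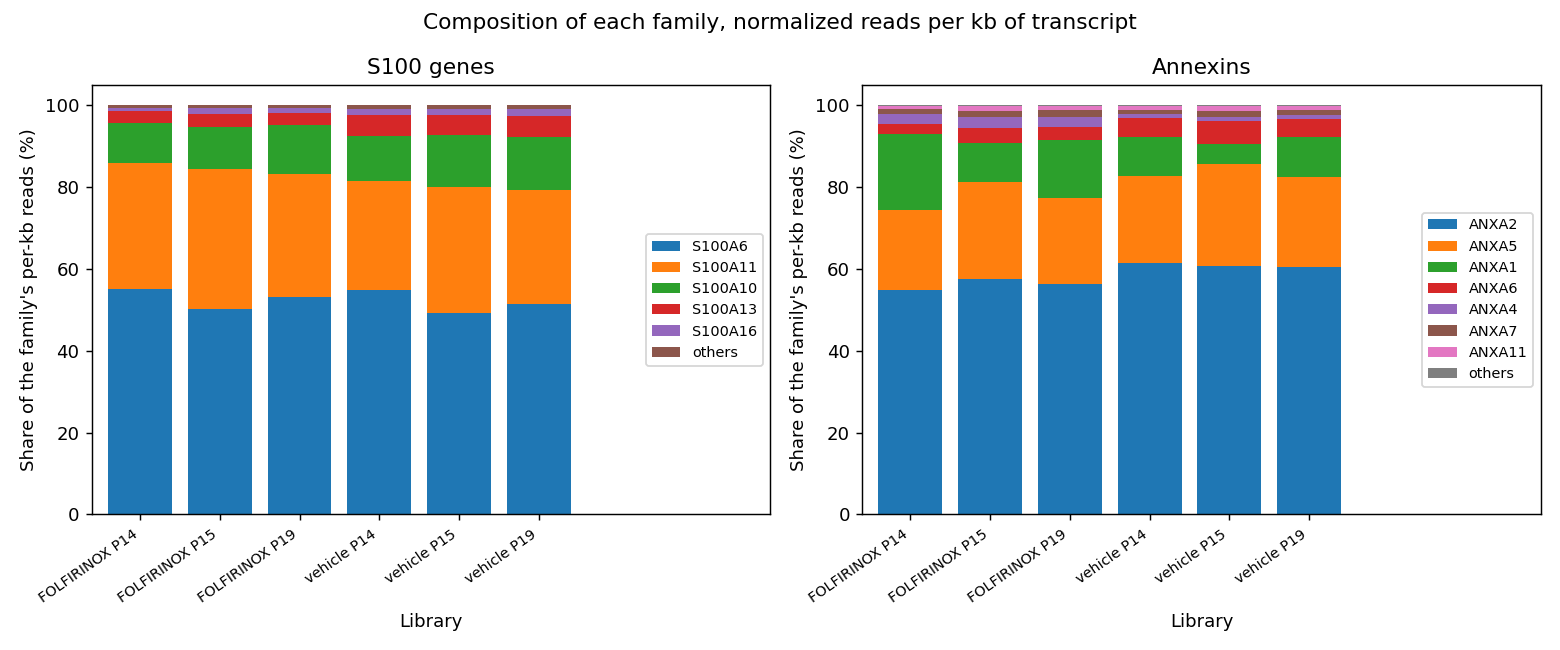
Share of each family's summed normalized reads per kb held by its main members (stacked bars from 0 to 100%), with the 3 FOLFIRINOX libraries left of the 3 vehicle libraries. S100A6 holds 49.2% to 55.0% of the S100 bar in all libraries, and the ANXA2 segment is 54.9% to 57.5% in FOLFIRINOX and 60.5% to 61.6% in vehicle.

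The ratio of partner genes within a library was compared for 6 pairs known to bind each other. S100A10 to ANXA2 had a log2 per-kb ratio of −3.55 ± 0.06 in FOLFIRINOX and −3.51 ± 0.12 in vehicle (SD, n = 3 each), a difference of −0.04 (two-sided exact permutation p = 0.7). S100A11 to ANXA1 had 0.07 ± 0.61 in FOLFIRINOX and 0.70 ± 0.74 in vehicle (exact permutation p = 0.4). S100A6 to CACYBP, the calcyclin-binding protein, had 4.47 ± 0.16 in FOLFIRINOX and 3.98 ± 0.37 in vehicle, higher in 3 of 3 FOLFIRINOX libraries than in any vehicle library, at p = 0.1, the smallest an exact permutation test of 3 against 3 can give. S100A11 to ANXA2, S100A6 to ANXA11 and S100A4 to MYH9 differed by 0.31, 0.34 and 0.51 (exact permutation p = 0.2, 0.6 and 0.3). Adjusted over the 6 pairs every p was 0.6 or above. S100A8 to S100A9 had no reads to compare.

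Several members followed the P number. P14 was the highest library in both groups for 7 of the 9 S100 genes tested (S100A2, S100A3, S100A4, S100A6, S100A10, S100A11 and S100A13) and for 5 of the 10 annexins (ANXA1, ANXA2, ANXA4, ANXA5 and ANXA10), as for 16.02% of all genes tested. S100 reads were 0.168%, 0.125% and 0.121% of all gene reads in FOLFIRINOX, against 0.168%, 0.12% and 0.119% in vehicle, in the order P14, P15, P19. Annexin reads were 0.838%, 0.626% and 0.665% in FOLFIRINOX, against 0.788%, 0.599% and 0.711% in vehicle. P14 also had the highest mitochondrial ribosomal RNA share in both groups, given above, and the part of that in these levels was not tested. Leaving out both P14 libraries removed 1 of the 6 member calls, that of S100A16.

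Receptors of S100 proteins and annexins were measured through a list of 11 genes. Of 9 that passed the filter 1 rose and 1 fell, with a median log2 difference of −0.16, when 11.4% of all genes tested rose and 12.2% fell. CD36, a scavenger receptor, rose, with 193 ± 28.98 normalized reads in FOLFIRINOX and 56.0 ± 8.57 in vehicle (1.77 ± 0.25, limma adjusted p = 5.7e-04). MCAM, an adhesion receptor that binds S100A8 and S100A9, fell to 3756 ± 249.7 in FOLFIRINOX, against 5654 ± 799 in vehicle (−0.58 ± 0.16, limma adjusted p = 0.0254), a call lost without any of FOLFIRINOX P14 or P19 or vehicle P14 or P15 (adjusted p 0.0646 to 0.105), with common-total scaling (0.0692) and with limma without trend (0.0628). With the replicate block 3 rose and 3 fell, against 22.3% and 21.8% of all genes. Named after their values were seen, AGER had 46.2 ± 17.1 normalized reads in FOLFIRINOX and 55.2 ± 9.05 in vehicle (limma adjusted p = 0.567). TLR4, a receptor for S100A8 and S100A9, had 5059 ± 1199 in FOLFIRINOX and 3541 ± 1268 in vehicle (0.55 ± 0.25, limma adjusted p = 0.142, and 4.7e-04 with the replicate block). FPR1, a formyl peptide receptor, had 215 ± 110.4 in FOLFIRINOX and 302 ± 169 in vehicle (limma adjusted p = 0.447, and 0.0426 with the replicate block).

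Intracellular binding partners of S100 proteins made a list of 22 genes, of which 18 passed the filter, 3 rose and 4 fell (median −0.16), against 11.4% and 12.2% of all genes. MDM2, a ubiquitin ligase, rose to 81828 ± 16451 normalized reads in FOLFIRINOX, against 9956 ± 1915 in vehicle (3.04 ± 0.20, limma adjusted p = 1.5e-06). FGF1, which S100A13 carries out of the cell, rose to 6980.0 ± 1083, against 4433 ± 213 in vehicle (0.64 ± 0.16, limma adjusted p = 0.0155), and the kinase STK38 rose by 0.49 (adjusted p = 0.0404). EZR, STIP1 and MYH9, which encode the actin linker ezrin, a co-chaperone and non-muscle myosin IIA, fell by 0.66, 0.59 and 0.57 on the log2 scale (limma adjusted p = 0.0111, 0.0112 and 0.0472). FGF1 was not called without FOLFIRINOX P14 or P19 or vehicle P15 (adjusted p 0.0552 to 0.0585), STIP1 not without FOLFIRINOX P19 (0.0708), STK38 not without any library but vehicle P19 (0.0600 to 0.121) and MYH9 not without any library but vehicle P19 (0.0710 to 0.176). STK38 was also not called with no filter (0.0614), edgeR (0.0567) or limma without trend (0.0844), and MYH9 not with a pseudocount of 8 (0.0504), no filter (0.180), common-total scaling (0.0945) or limma without trend (0.112). With the replicate block 6 rose and 7 fell, against 22.3% and 21.8% of all genes.

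Genes of calcium-triggered membrane repair, in which annexins act, made a list of 26, of which 23 passed the filter, 3 rose and 0 fell (median 0.05), against 11.4% and 12.2% of all genes. With the replicate block 5 rose and 3 fell, against 22.3% and 21.8%, so the counts of rising genes were near the background in both fits. CHMP4C, an ESCRT-III subunit, rose to 1066 ± 229.8 normalized reads in FOLFIRINOX, against 459 ± 40.8 in vehicle (1.20 ± 0.20, limma adjusted p = 0.0019). AHNAK2, a giant scaffold protein, rose by 0.79 and CHMP2B, another ESCRT-III subunit, by 0.68 (limma adjusted p = 0.0055 and 0.0266). The call of CHMP2B was lost without FOLFIRINOX P14 or P19 or vehicle P14 or P15 (adjusted p 0.0719 to 0.104), without both P14 libraries (0.154) and with limma without trend (0.0792).

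Other EF-hand calcium sensors made a list of 39, without S100 genes. Of these 28 passed the filter, of which 1 rose and 6 fell (median −0.11), against the 11.4% and 12.2% over all genes given above. HPCAL1, a hippocalcin relative, fell to 1149.6 ± 182 normalized reads in FOLFIRINOX, against 2933 ± 592 in vehicle (−1.34 ± 0.20, limma adjusted p = 7.3e-04). RCN3, an endoplasmic reticulum calcium binder of the collagen pathway, fell by 0.94 and the actin regulator EFHD2 by 0.75 (limma adjusted p = 0.0041 and 0.0106), and EFHD2 was not called without both P14 libraries (0.0935). The 1 gene that rose was CALML6, named after its values were seen, with 26.9 ± 6.12 normalized reads in FOLFIRINOX and 3.26 ± 2.03 in vehicle (limma adjusted p = 0.0051). It had 2 to 6 reads per vehicle library and passed the filter only through its FOLFIRINOX libraries, so its call is not independent of that filter.

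The epidermal differentiation complex, a block of skin barrier genes in the same part of chromosome 1 as many S100 genes, had few expressed genes. Of 40 genes 19 had no read in any library and 7 passed the filter, of which 2 rose and 1 fell (median 0.68), against 11.4% and 12.2% of all genes. The highest was LCE2A, named after its values were seen, with 2338, 1963 and 1545 normalized reads in FOLFIRINOX and 2872, 1885 and 1678 in vehicle (−0.12 ± 0.23, limma adjusted p = 0.747). LCE1F and LCE4A, late cornified envelope genes, rose by 2.01 and 1.46 on the log2 scale (limma adjusted p = 0.0059 and 0.0038), with means of 68.4 and 123 normalized reads in FOLFIRINOX and 15.5 and 43.4 in vehicle. LCE3A fell by 1.29 (adjusted p = 0.0138), a call lost without vehicle P14 (0.0600) and without both P14 libraries (0.0854). LCE genes resemble each other in sequence, and reads may be split between them, which makes these values uncertain. Of 8 stratified keratinocyte markers KRT5, KRT1, KRT6A and SPRR1B had no read. DSG3, a desmosomal cadherin, had 73.0, 109 and 181 normalized reads in FOLFIRINOX and 0 in each vehicle library (limma adjusted p = 8.3e-06). It passed the filter only through its FOLFIRINOX libraries, so that p-value is not independent of the filter. KRT14 failed the filter, with 8, 78 and 86 reads in FOLFIRINOX and 0, 6 and 8 in vehicle. KRT10 held nearly all of the list's sum, 2150 to 2645 normalized reads in FOLFIRINOX and 1733 to 2071 in vehicle, and was not called (adjusted p = 0.366). The part of these markers in the LCE values was not tested.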

How the data were processed

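The 6 libraries of polyadenylated RNA fell into groups of 3. Per the submitters' processing notes, the tools were featureCounts 2.0.6, STAR 2.7.11b, FastQC 0.12.1 and DESeq2, and the build was GRCh38. Which annotation, strand setting and DESeq2 design the authors chose is not given in the sources used here. Per gene, the deposited table gives 6 columns of signal (reads divided by a size factor) and the authors' own comparison as a mean signal, log2 fold changes, a score (the test statistic) and p-values, which were not used here. All values in each column were whole multiples, within 0.001, of the value of 1 read (100% of values), so reads were recovered from the deposited signal. Even numbers made up 72.3% to 74.8% of recovered counts below 50 in each library, so both ends of a fragment may be counted, and floors, which cover counting error only, are then too low.

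Log2(value + 1) was tested with limma 3.58.1 and its trend option, for genes reaching 10 in no fewer than 3 libraries, with Benjamini-Hochberg adjustment over all 17951 genes. This scale makes folds of low genes too small. The standard error had a median of 0.226. Same-numbered P libraries correlated in their deviations from group means at 0.257, 0.282 and 0.288, so P numbers from the column names were read as pairs in an alternative fit (replicate block). Others correlated at −0.263 to −0.027. Deviations within a group cancel out for each gene, so those must be negative on average and are no separate support for pairing. The columns carry no number of the labels. Also run were a filter at 50 and none, pseudocounts of 0.5 and 8, TMM and common-total scaling, DESeq2 1.42.0 and the quasi-likelihood test of edgeR 4.0.16 on recovered reads, limma with its trend switched off, and fits that left out libraries. Chi-square per degree of freedom between libraries of a group was at least 76.02, so none is a repeat deposit.

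Members and gene lists were chosen with earlier results of these data known. Named were all members that passed the filter, with each library's value where called or with a mean of 1000 or more, and up to 3 called genes per list and direction with a mean of 50 or more. Coordinates and lengths came from GENCODE 29 and promoter sequences from RefSeq (GRCh38.p14), which matched 29 of 32 members. Tests ran in R 4.3.3, tables and figures in Python 3.11.15. Some items of the gene lists and 1 motif are not reported here.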

Additional observations from a re-analysis of the deposited data

How the results depend on the processing

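The calls of ANXA3, ANXA4, ANXA6 and S100A3 held in each alternative run. With limma without trend S100A13 and S100A16 were not called (adjusted p = 0.0682 and 0.0503), which left 1 S100 gene lower. The replicate block on P number added ANXA1, ANXA10, ANXA11 and S100A10, giving 4 annexins higher and 2 lower, and changed no other member's call. With that paired fit 3995 genes were higher and 3918 lower, 3 receptors higher and 3 lower, 6 binding partners higher and 7 lower, 5 membrane repair genes higher and 3 lower, and 2 other EF-hand sensors higher. Without both P14 libraries 1162 genes were higher and 1368 lower, 0 receptors lower, 1 binding partner higher and 2 lower, and 0 genes of the epidermal differentiation complex lower. Common-total scaling, which moved the median of all genes tested to 0.13, gave 0 receptors and 2 binding partners lower, and over all genes 2683 higher and 1698 lower. Limma without trend gave the same 0 and 2. The filter at 50 left 0 other EF-hand sensors and 1 gene of the epidermal differentiation complex higher. CALML6 and LCE1F did not reach 50 normalized reads in 3 libraries and were not tested there. S100A4 changed sign to 0.047 with common-total scaling and 0.13 without both P14 libraries, and S100A6 to 0.072 with common-total scaling. The count tests gave 1820 higher against 2389 lower (edgeR) and 2208 against 2300 (DESeq2). For the other changes the cause was not tested.

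Leaving out 1 library at a time gave 1318 to 2218 genes higher and 1544 to 2204 lower, 1 to 3 S100 genes lower, 2 annexins higher and 1 lower throughout, 1 to 2 receptors higher and 0 to 1 lower, 1 to 3 binding partners higher and 1 to 6 lower, 2 to 3 membrane repair genes higher and 0 to 1 lower, 4 to 6 other EF-hand sensors lower, and 0 to 1 gene of the epidermal differentiation complex lower. The log2 differences ranged from −1.44 to 0.15 for S100A1, −0.074 to 0.22 for S100A11, −0.22 to 0.24 for S100A4, −0.25 to 0.19 for S100A6 and −0.0059 to 0.13 for ANXA7, none of them called. The log2 ratio of S100A10 to ANXA2 differed between groups by −0.090 to 0.027 and that of S100A6 to ANXA11 by −0.024 to 0.56. S100A1 and ANXA9, with few reads, had wide intervals that spanned 0.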

Other observations

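PLA2G4A, the cytosolic phospholipase A2 whose activity annexins are known to restrain in biochemical assays, is named after its values were seen. It had 1095, 909.7 and 939 normalized reads in FOLFIRINOX, against 1772, 1453 and 2475 in vehicle. The groups did not overlap, and the gene fell by 0.92 on the log2 scale (limma adjusted p = 0.0094, and 0.0063 to 0.0347 with each library left out).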
